A study of Mus musculus with 2 samples.

Results

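CpG-poor promoters whose chromatin was open in both libraries of the newborn mouse midbrain are described here: 545 of 7337 CpG-poor genes (7.43%), or of 20807 autosomal protein-coding genes in all. Open chromatin had been mapped by DNase-seq, in which the nuclease DNase I cuts accessible DNA in nuclei and the released ends are sequenced. The 2 libraries are biological replicates of 1 group, midbrain tissue of the mouse strain B6NCrl on postnatal day 0, healthy, untreated as far as the labels say, with males and females pooled. Both biosamples trace to 1 donor entry for the strain, so the replicates may share animals or an origin, and the tissue mixes all its cell types. A gene entered when the 1000 bp about its 5′ end (500 bp on each side, sequence of mm10) had an observed to expected CpG ratio under 0.34, and when a region that joins overlapping or touching peaks of both libraries lay within 500 bp of that end. The members were thus chosen on measured peaks as well as on sequence, and their openness is a description, not a finding. Their signal, too, comes from the peaks that selected them. They were set beside the 6050 CpG-poor genes (82.5%) with no peak of either library in that window. In a mixed tissue, fewer cells with an open promoter and a less open promoter in each cell cannot be told apart.

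Most mammalian promoters lie in CpG islands, where unmethylated CpG sites recruit proteins that keep chromatin open in nearly every cell type. CpG-poor promoters lack that signal. They are known for serving genes of specialised cells, for being methylated and closed where they are not used, and for opening where sequence-specific transcription factors bind. Some carry a TATA box, a short word just before the start that positions the transcription machinery. Others carry words read by factors such as NF-Y (CCAAT), the Sp family (GC box), proneural helix-loop-helix proteins (E-boxes), nuclear factor I, or the RFX family, whose X-box is known in genes of motile cilia and in MHC class II genes.

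Upstream DNA of 13 members shows what these promoters look like. They begin with the 7 highest-ranked members by signal that stood alone and had a usable upstream stretch. The highest-ranked such member not already taken was added from each of the neuropeptide, astrocyte, motile cilium, interferon and antigen presentation, and MHC groups. Last came the highest-ranked one left that carried a TATA box. Each line gives the 150 bases before the 5′ end on the sense strand, ending at the base before the start, from the RefSeq copy of mm10. Capitals mark 7 words on either strand: the TATA box TATAAA, the CCAAT box, which reads ATTGG in reverse, the GC box GGGCGG, which reads CCGCCC, and the E-box CAGCTG. The nuclear factor I word TTGGCA reads TGCCAA in reverse, the RFX word GTTGCC reads GGCAAC, and its variant GTTGCTA reads TAGCAAC. The last, a variant of the RFX word GTTGCC, was added to the search after these sequences had been read.
Pold4: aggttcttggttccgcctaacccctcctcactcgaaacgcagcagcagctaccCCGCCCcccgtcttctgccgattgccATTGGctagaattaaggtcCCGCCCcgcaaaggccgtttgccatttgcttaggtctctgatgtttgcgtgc
Mterf2: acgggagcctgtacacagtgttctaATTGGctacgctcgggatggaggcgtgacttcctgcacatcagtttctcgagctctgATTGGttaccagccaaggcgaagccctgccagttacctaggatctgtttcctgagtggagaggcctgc
4930505A04Rik: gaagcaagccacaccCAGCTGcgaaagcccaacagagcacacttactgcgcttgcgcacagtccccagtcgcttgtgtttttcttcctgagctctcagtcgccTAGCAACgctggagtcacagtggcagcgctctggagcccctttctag
Fez1: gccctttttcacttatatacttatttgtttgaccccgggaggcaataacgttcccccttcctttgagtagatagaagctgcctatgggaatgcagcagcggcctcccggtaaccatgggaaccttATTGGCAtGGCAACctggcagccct
Pnmal1: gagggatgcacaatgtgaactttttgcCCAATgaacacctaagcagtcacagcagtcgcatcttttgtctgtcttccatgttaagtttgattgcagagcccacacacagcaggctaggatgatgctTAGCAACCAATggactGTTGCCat
Tspoap1: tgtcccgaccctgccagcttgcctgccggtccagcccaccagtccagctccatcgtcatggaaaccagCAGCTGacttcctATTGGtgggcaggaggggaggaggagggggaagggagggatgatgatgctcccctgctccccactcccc
Rsph14: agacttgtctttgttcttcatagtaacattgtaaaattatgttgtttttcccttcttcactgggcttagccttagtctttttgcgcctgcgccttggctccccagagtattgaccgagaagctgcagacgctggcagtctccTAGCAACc
Pdyn: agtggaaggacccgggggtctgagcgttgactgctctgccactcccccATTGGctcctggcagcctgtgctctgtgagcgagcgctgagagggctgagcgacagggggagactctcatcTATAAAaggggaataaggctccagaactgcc
Gfap: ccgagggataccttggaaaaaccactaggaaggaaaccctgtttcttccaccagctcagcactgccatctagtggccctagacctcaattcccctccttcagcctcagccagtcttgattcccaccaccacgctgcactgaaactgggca
Cfap44: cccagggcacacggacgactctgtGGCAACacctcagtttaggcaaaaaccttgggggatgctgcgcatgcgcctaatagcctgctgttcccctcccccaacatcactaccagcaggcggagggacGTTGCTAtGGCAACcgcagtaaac
Mr1: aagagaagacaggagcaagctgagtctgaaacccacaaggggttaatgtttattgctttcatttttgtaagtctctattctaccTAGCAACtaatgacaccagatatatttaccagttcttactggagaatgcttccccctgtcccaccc
H2-Ob: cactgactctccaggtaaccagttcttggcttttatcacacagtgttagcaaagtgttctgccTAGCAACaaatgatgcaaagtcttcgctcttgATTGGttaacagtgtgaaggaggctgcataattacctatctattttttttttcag
Adamtsl2: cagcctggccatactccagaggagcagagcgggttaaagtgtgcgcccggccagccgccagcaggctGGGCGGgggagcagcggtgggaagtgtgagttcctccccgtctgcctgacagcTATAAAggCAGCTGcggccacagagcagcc
These stretches overlap no annotated exon. On the plus strand they are chr19:4231749-4231898 (Pold4), chr9:36821714-36821863 (Fez1), chr7:16959529-16959678 (Pnmal1), chr11:87760391-87760540 (Tspoap1), chr16:44394646-44394795 (Cfap44), chr17:34238753-34238902 (H2-Ob) and chr2:27079229-27079378 (Adamtsl2). On the minus strand they are chr10:85128028-85128177 (Mterf2), chr11:30471828-30471977 (4930505A04Rik), chr10:75032587-75032736 (Rsph14), chr2:129699845-129699994 (Pdyn), chr11:102900913-102901062 (Gfap) and chr1:155146815-155146964 (Mr1). The Pold4 stretch lies within the annotated gene AC109138.7 and the Gfap stretch within Gm26668, in introns; the other 11 lie in no other gene. Between 83 (Pnmal1) and 150 of the printed bases fell inside the open region. Of the 13 stretches, 12 held a marked word, and Gfap held none. In Pdyn and Adamtsl2 the TATA box starts at -31 and -30, counted from the 5′ end as base 0.

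Replicate 1 had 228203 usable peaks and replicate 2 had 122593, each 150 bp wide, and read depth is unknown. Their median deposited signal, a whole number per peak that was not scaled between libraries, was 44 in replicate 1 and 18 in replicate 2. In the longer list 1198 CpG-poor genes (16.3%) had a peak within 500 bp, against the 545 with a region shared by both. The midbrain and hindbrain genes En1 (signals 108 and 36) and En2 (112 and 52) were open in both libraries, and the liver gene Alb had no peak. The forebrain gene Emx1 had a peak of replicate 2 alone (signal 18), and Otx2, which is expressed in the midbrain, had none.

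Openness climbed with CpG ratio without a step at 0.34. Among genes with a ratio under 0.1, 15 of 1679 (0.893%) had a shared region, and the share was 4.01% from 0.1 to 0.2, 12.9% from 0.2 to 0.3, and 24.5% (95% Wilson interval 21.2 to 28.1, n = 601) from 0.3 to 0.34. Just above the limit, from 0.34 to 0.4, it was 38.1% (34.8 to 41.5, n = 796), and it reached 96.5% at ratios of 1 to 1.2. Over all autosomal protein-coding genes 56.6% had a shared region. Intervals here and below cover counting error only. The members nearest the limit were Slc26a7 (ratio 0.3399), Gpr37 (0.3392) and Tom1l1 (0.3390), and the nearest open genes beyond it were Pml (0.3404), Clstn3 (0.3407) and Gm6034 (0.3409). On the distance rule, the regions of Wdr38, Isg20 and Vangl2 lay 500, 499 and 499 bp from the 5′ end, and those of Clec4g, Pga5 and Mfap4 lay 505, 505 and 506 bp away, just outside.

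**Figure D1:**
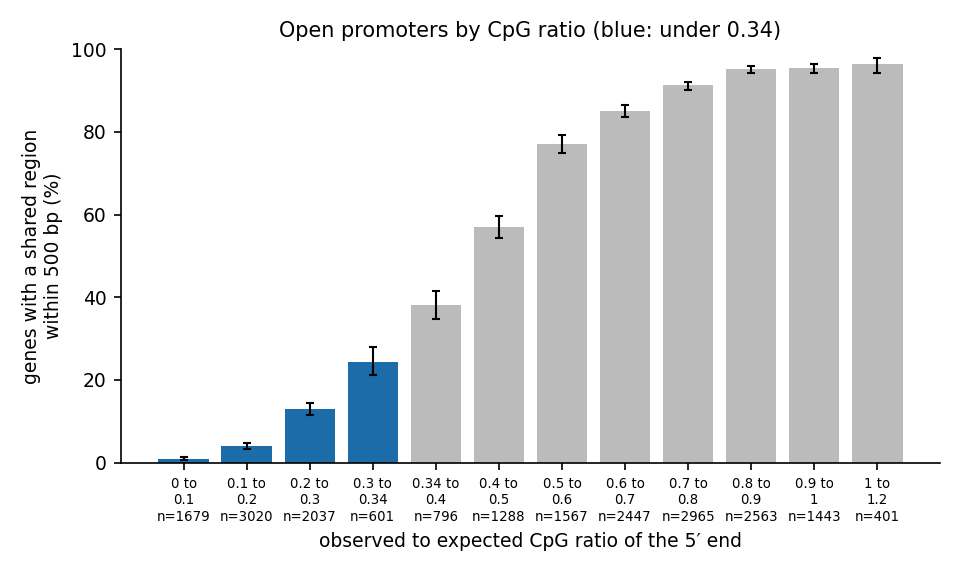
Share of autosomal protein-coding genes with a region holding peaks of both libraries within 500 bp of the 5′ end (y axis, percent), by observed to expected CpG ratio of the 1000 bp about that end (x axis, with the number of genes n); bars are shares, error bars 95% Wilson intervals, blue bars the ratios under 0.34. The share climbs from 0.893% to 24.5% within the CpG-poor range and on to 96.5%.

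Median signal at the members was lower than at CpG-rich open promoters. In replicate 1 it was 81 (range 16 to 136), against 120 (13 to 149) at the 11239 CpG-rich open promoters. In replicate 2 it was 25 (6 to 84), against 57 (7 to 125). The strongest peaks of the members stood at the 85.0th percentile of all replicate 1 peaks at the median, and at the 68.6th of replicate 2 peaks. The libraries ordered the members alike: Spearman's rho between their signals was 0.748 over 545 members, a description of peaks that share regions and base composition. CpG-poor genes with a peak of replicate 1 alone (633) had weaker peaks there, with a median signal of 37, and those with a peak of replicate 2 alone (86) had a median of 9. A further 23 genes had peaks of both libraries in separate regions, with median signals of 39 and 11. The strongest peaks of both libraries lay within 20 bp of each other at 323 of the 545 members (59.3%).

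**Figure D2:**
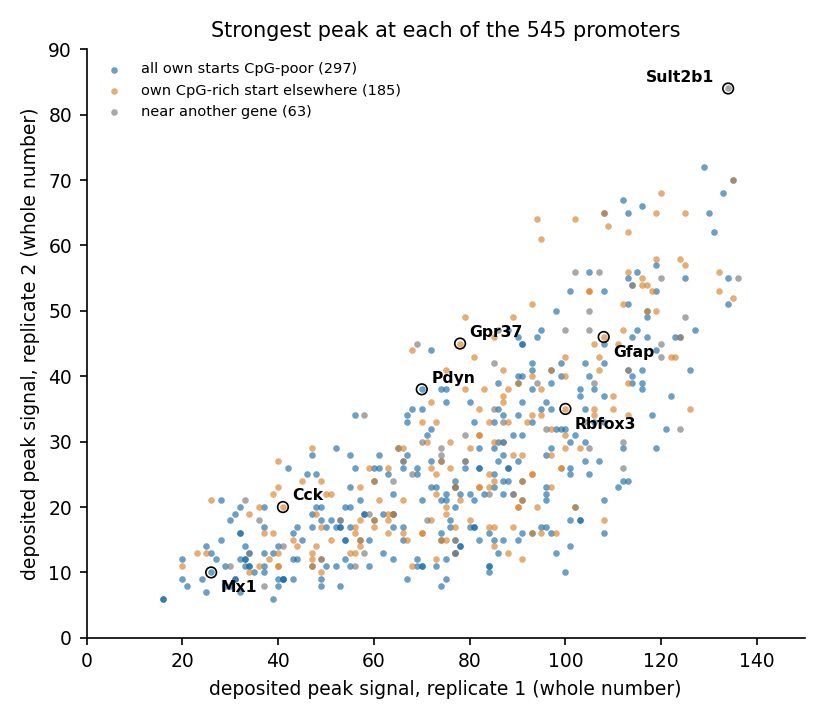
Deposited signal of the strongest peak at each of the 545 promoters in replicate 1 (x axis) and replicate 2 (y axis), in the authors' whole-number units; each point is 1 gene, coloured by what its annotated starts look like, and 7 genes are circled and named. Of the named genes Mx1 lies lowest (26 and 10) and Sult2b1 highest (134 and 84), and each of the 3 kinds spreads over both axes.

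The strongest members served general cell functions as well as neurons. Sult2b1, a steroid sulfotransferase gene, had signals of 134 in replicate 1 and 84 in replicate 2, but its region lay at the start of the neighbouring gene Lmtk3. Akr1e1, an aldo-keto reductase gene, had 135 and 70, near the start of the pseudogene Rpl29-ps2. Madd, which encodes a Rab3 exchange factor of synaptic vesicles, had 135 and 70. The next were Pold4, a DNA polymerase delta subunit (129 and 72), and Mterf2, a mitochondrial transcription factor (133 and 68). All 5 exceeded the medians of CpG-rich open promoters in both libraries. Not all of these regions were CpG-poor when the ratio was taken about the middle of the region. That ratio was 0.41 at Sult2b1, 0.621 at Madd and 0.371 at Mterf2, above the CpG-poor limit. It was 0.328 at Pold4 and 0.312 at Akr1e1, below that limit. Ranks 6 to 10 were the unnamed gene 4930505A04Rik (130 and 65), Fez1, a kinesin adaptor of growing axons (125 and 65), Pnmal1 (131 and 62), Bloc1s1 (120 and 68) and the presynaptic scaffold gene Tspoap1 (119 and 65). Ranks 11 to 15 included the radial spoke gene Rsph14 (116 and 66), the clock output factor gene Tef (136 and 55), Ptms (132 and 56) and the cilium gene Cfap44 (113 and 65). Of those named, 4930505A04Rik, Pnmal1, Pold4, Mterf2, Rsph14 and Cfap44 had no CpG-rich start of their own and no other gene's start within 500 bp of the region.

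Many members have a CpG-rich start elsewhere in the gene. Of the 545, 297 had only CpG-poor annotated starts and a region over 500 bp from any other gene's start. Another 185 had a region as far from other genes' starts but had a further start with a ratio of 0.34 or more. The remaining 63 (11.6%) had a region within 500 bp of another gene's start, a coding gene's in 36. Counting all members, 215 (39.4%, Wilson interval 35.4 to 43.6) had a CpG-rich start of their own, against 901 of the 6050 CpG-poor genes without a peak (14.9%, 14.0 to 15.8). From a ratio of 0.3 to 0.34 these shares were 45.6% (37.7 to 53.6) and 30.1% (25.6 to 35.0). Members had more annotated starts, a median of 4 against 2, and the part of that number was not tested. At 136 members (24.95%), out of the 215 with such a start, a separate shared region lay at a CpG-rich start. The same held for 540 genes without a peak (8.93%), out of the 901 with such a start. An open CpG-rich start was thus not particular to members, and these 540 genes were open away from their 5′ end. Fez1, Rbfox3, Nrxn3 and Gria1, all genes of neurons, were among the 136 members: the outermost CpG-poor start and a CpG-rich start of the same gene were both open. Stmn2 had a CpG-rich start too, with no shared region of its own there. The 85 members (15.6%) whose region itself had a ratio of 0.34 or more over the same length about its middle were 22 of the 297, 45 of the 185 and 18 of the 63. Members therefore include regions that are not CpG-poor when centred on the peak. Signal differed little between the kinds, with medians of 78 and 23 (replicates 1 and 2) in the 297, 83 and 26 in the 185 and 85 and 30 in the 63.

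The 545 members lay in 536 regions, since 9 regions served 2 members each. The region of the membrane protein genes Tmem176a and Tmem176b had signals of 124 and 46, and it held the 5′ end of Tmem176b but lay 437 bp from that of Tmem176a. Bco2 and Il18 shared a region with 113 and 41, and the kidney and neural adhesion genes Kirrel2 and Nphs1 1 with 89 and 22. The others were Bcl2l2 with Gm20521 (114 and 54), Masp1 with Rtp4 (79 and 27), Atp6v1h with Rgs20 (77 and 15), Gm45717 with Ifitm2 (77 and 13), Gm44596 with Tex52 (66 and 27), and B230118H07Rik with Rag1 (53 and 18). Rag1, a recombinase gene of lymphocytes, therefore counts as open through a region 236 bp from its own 5′ end and 267 bp from that of B230118H07Rik. Starts of other genes lay within 500 bp of the 5′ end at 9.17% of members, at 4.58% of CpG-poor genes without a peak and at 29.9% of CpG-rich open promoters.

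Regions spread widely about the start. Their middles lay at a median of -15.5 bp from the 5′ end (quartiles -83.5 and 150.5), upstream at 306 of 545 members (56.1%) and within 100 bp of it at 271 (49.7%). The middle lay more than 250 bp from the end at 169 members (31.0%, 27.3 to 35.0). At CpG-rich open promoters the median was -30.5 bp, 63.4% lay within 100 bp and 15.8% beyond 250 bp. The 297 members with only CpG-poor starts were more centred (57.6% within 100 bp, Wilson interval 51.9 to 63.1) than the 185 with a CpG-rich start elsewhere (41.6%, 34.8 to 48.8). The upper quartile of the offset was 66.5 bp in the former and 308.5 bp in the latter, where regions such as those of Madd (536.5 bp) and Bloc1s1 (494.5 bp) lay well inside the gene. The 5′ end itself lay inside the region at 259 members (47.5%). More than 1 shared region lay within 500 bp of the end at 73 members (13.4%), against 36.9% of CpG-rich open promoters.

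**Figure D3:**
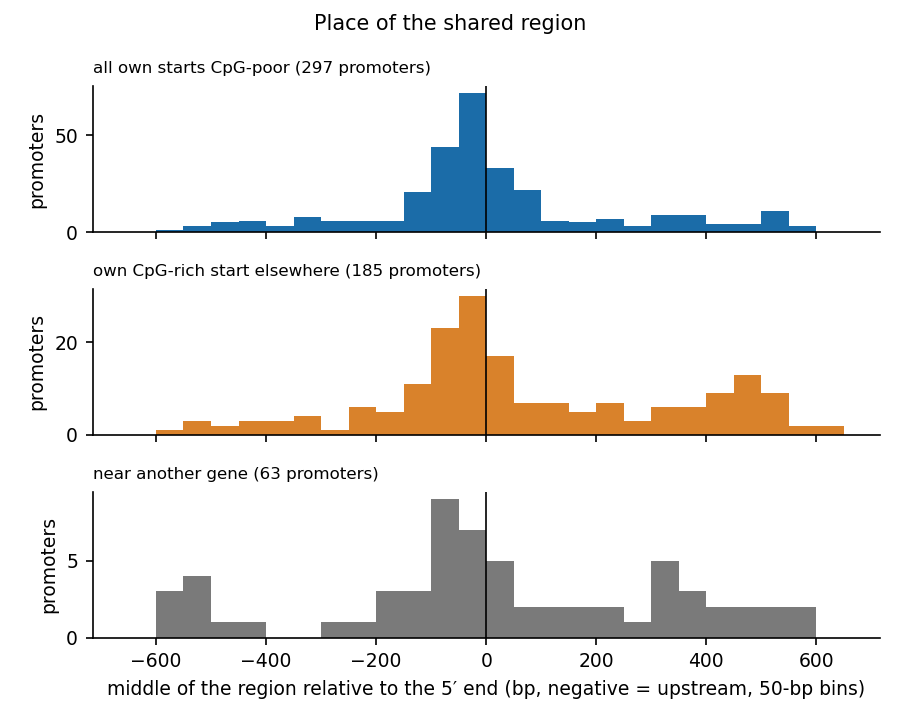
Middle of the shared region relative to the 5′ end (x axis, bp, negative values upstream, bins of 50 bp) for members with only CpG-poor starts, with a CpG-rich start of their own elsewhere, and near another gene's start; the y axis counts promoters and the vertical line marks the 5′ end. The first 2 kinds peak just upstream of the end, and the second has a further group downstream.

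The hotspots, wider intervals that the authors called from the same alignments, covered nearly all members: 543 (99.6%) in replicate 1 and 539 (98.9%) in replicate 2. They are not an independent measure of openness. The −log10 of the hotspot's q value was at its highest deposited class, 100, at 84.2% of members in replicate 1 and at 42.6% in replicate 2. At CpG-rich open promoters these shares were 96.7% and 83.1%. Among CpG-poor genes without a peak, 62 (1.02%) had a hotspot of replicate 1, 35 (0.579%) one of replicate 2 and 30 both, so nearly all of them lacked a hotspot as well.

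Base composition and surroundings, which the rule did not use directly, differed between members and CpG-poor genes without a peak. GC content over the 1000 bp had a median of 50.4% in members and 44.6% in genes without a peak, and repeats covered 11.3% and 14.6% at the median. CpG ratio differs between these sets and moves with GC content, so values were also compared within narrow ranges of the ratio. From 0.1 to 0.2, median GC content was 49.9% in 121 members and 44.6% in 2643 genes without a peak, and from 0.3 to 0.34 it was 50.9% in 147 and 49.3% in 362. Their part in the differences below was not tested further. A coding transcript started at the 5′ end of 85.5% of members (82.3 to 88.2) and of 92.2% of genes without a peak (91.5 to 92.9), so more members have a non-coding transcript as their outermost one.

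Distal open chromatin lay around the members more often. At least 1 shared region over 500 bp from every annotated start lay in the gene body or within 10 kb of it at 411 members (75.4%, Wilson interval 71.6 to 78.8), at 2325 CpG-poor genes without a peak (38.4%, 37.2 to 39.7) and at 75.5% of CpG-rich open promoters. Members were also longer, with a median of 18.4 kb against 8.51 kb in genes without a peak, and the part of length was not tested. Median density was 3.23 and 0 distal regions per 100 kb, 3.25 and 2.02 within the ratio range 0.2 to 0.3, and 2.87 and 2.19 from 0.3 to 0.34. Within the ratio range 0.3 to 0.34 the shares were 76.9% (69.4 to 83.0) and 62.4% (57.3 to 67.3), and under 0.1 they were 73.3% (48.0 to 89.1, n = 15) and 18.1% (16.3 to 20.1). The 5 members with the most distal regions were Frmd4a, a scaffold gene of cell polarity (29), the neuronal splicing factor gene Rbfox3 (27), Msra (26), the presynaptic adhesion gene Nrxn3 (26) and Opcml (21). These are long genes, with domains of 616 kb (Frmd4a), 442 kb (Rbfox3), 353 kb (Msra), 1632 kb (Nrxn3) and 1155 kb (Opcml).

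TATA boxes were scarce at the members. TATAAA on the sense strand, starting 40 to 20 bases before the 5′ end, occurred at 11 members (2.02%, Wilson interval 1.13 to 3.58), at 337 CpG-poor genes without a peak (5.57%, 5.02 to 6.18), at 2.48% of all genes and at 0.703% of CpG-rich open promoters. Genes with a peak of replicate 1 alone lay between, at 4.58% (3.21 to 6.50). All 11 were among the 297 members with only CpG-poor starts, where they made up 3.70% (2.08 to 6.51), an interval that overlaps that of the genes without a peak. Within ranges of the CpG ratio the intervals overlapped as well: from 0.1 to 0.2 the share was 1.65% (0.454 to 5.83) in members and 5.60% (4.79 to 6.54) in genes without a peak. The 11 include the opioid peptide gene Pdyn (signals 70 and 38), the peptide gene Vip (32 and 12), the smooth muscle myosin gene Myh11 (69 and 26) and the chemokine gene Cxcl3 (61 and 28). They also include Adamtsl2, Dapl1, Fmo9, Crct1, Gm11541 and Hhla1. At 5 of the 11 the middle of the region lay over 250 bp from the TATA-bearing start (Cxcl3 at -372.5 bp, Hhla1 at -276.5, Gm11541 at 318.5, Fmo9 at 394.5 and Crct1 at 546.5), so the open region was not at the TATA box there.

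Words inside the open regions were compared with the 1090 stretches of the same 150 bp centred 1000 bp to either side, which share the neighbourhood but not its base composition: median GC content was 55.3% in the regions and 48.0% in those stretches. A region shared by a pair of genes enters once for each. The GC box GGGCGG was present in 90 of 545 regions (16.5%, Wilson interval 13.6 to 19.9) and 4.22% of flanking stretches (3.18 to 5.58). It was in 57.5% of CpG-rich open regions. Madd, Pold4 and Tef are among the highest-ranked members that carry it. The E-box CAGCTG was in 18.3% of regions (15.3 to 21.8) and 7.25% of flanks (5.85 to 8.94), and in 14.3% of distal regions but 7.56% of CpG-rich ones. Madd, 4930505A04Rik, Pnmal1 and Tspoap1 lead its carriers. The proneural E-box CAGATG (11.4% against 13.3%) and the ZEB and TCF E-box CACCTG (11.7% against 13.1%) were not more frequent in the regions than beside them.

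CCAAT was in 136 regions (24.95%, 21.5 to 28.8) and in 16.6% of flanks (14.5 to 18.9), and led by Sult2b1, Akr1e1, Pold4 and Mterf2. The nuclear factor I word TTGGCA was in 13.2% (10.6 to 16.3) and 6.70% (5.36 to 8.34), and its leading carriers were Fez1, Bloc1s1, Tef and Stmn4. The CTCF core word AGGGGGC was in 8.44% (6.39 to 11.1) and 2.57% (1.78 to 3.69), and the ETS word CCGGAA in 6.24% (4.50 to 8.59) and 1.93% (1.26 to 2.93). Other words were scarcer in the regions than beside them. TATAAA at any place was in 2.75% of regions (1.68 to 4.49) and 9.36% of flanks (7.77 to 11.2), the nuclear receptor word AGGTCA in 4.59% (3.13 to 6.68) and 10.5% (8.78 to 12.4), and the GATA word AGATAA in 4.04% (2.68 to 6.04) and 7.06% (5.69 to 8.74). No match was tested for binding, and the part of base composition in these shares was not tested.

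RFX words were also more frequent in the regions than beside them. GTTGCC was in 79 regions (14.5%, 11.8 to 17.7) and in 4.77% of flanks (3.66 to 6.20). The variant GTTGCTA was in 44 regions (8.07%, 6.07 to 10.7) and in 0.917% of flanks (0.499 to 1.68), in 4.49% of distal regions and in 2.20% of CpG-rich open regions. Either word was in 112 member regions (20.6%, 17.4 to 24.1), 5.69% of flanks, 15.1% of distal and 9.88% of CpG-rich open regions. The variant was searched because it had been seen in printed sequences, so its count is no independent evidence. Its highest-ranked carriers were 4930505A04Rik, Pnmal1, Rsph14 and Cfap44.

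Over the fixed window from 250 bases before to 50 after the 5′ end, which can be read at every gene, GGGCGG was in 19.6% of members, 7.02% of CpG-poor genes without a peak and 43.7% of all genes. CAGCTG was in 22.4%, 16.5% and 15.5%. GTTGCC was in 15.8%, 10.9% and 11.96%, and GTTGCTA in 7.89% (5.91 to 10.5), 4.38% and 3.81%. CCAAT was in 36.5%, 39.8% and 38.6%, with no surplus at members. TTGGCA was in 19.3%, 19.7% and 13.8%, likewise without a surplus over the genes without a peak. Within the CpG ratio range 0.3 to 0.34, GGGCGG was in 23.1% of members (17.0 to 30.6) and 16.9% of genes without a peak (13.3 to 21.1), GTTGCC in 14.3% (9.54 to 20.9) and 11.6% (8.70 to 15.3), and CAGCTG in 19.7% (14.1 to 26.9) and 21.5% (17.6 to 26.1), the other way about. All 3 pairs of intervals overlap there. From 0.1 to 0.2 those of GGGCGG did not, at 13.2% (8.31 to 20.4) and 5.83% (4.996 to 6.79). Nor did they from 0.2 to 0.3, at 20.99% (16.5 to 26.3) and 12.4% (10.8 to 14.2). CAGCTG was in 23.97% (17.2 to 32.3) and 15.7% (14.4 to 17.1) from 0.1 to 0.2, without overlap. From 0.2 to 0.3 its intervals overlapped, as did those of GTTGCC in both ranges. Under 0.1, with only 15 members, the intervals of each word lay apart, members higher. Over all ratios, AGGGGGC was in 10.6% of members, 3.47% of CpG-poor genes without a peak and 12.03% of all genes. CCGGAA was in 8.07%, 3.44% and 17.9%. The other words searched, all on both strands, are in the plot of sequence words. They were CACGTG for MYC and USF, TGACGT for the CRE, TGANTCA for AP-1, AGGAAGT for ETS factors, ATGCAAAT as the octamer, ACAATG and ACAAAG for SOX factors, TAATTA for homeodomains and CCACCC for Krueppel-like factors. The EBF factors had the word CCCNNGGGA, the TEAD factors had the word GGAATG, the RUNX factors TGTGGT and the STAT factors TTCNNNGAA. The MYT1 family was searched by AAAGTTT, the EGR family by the word GTGGGNG, the MEIS family by TGACAG, forkhead factors by the word GTAAACA, the repressor REST by TTCAGCACC and the factor YY1 by the word AAGATGG. The MEF2, interferon response and nuclear factor I pair words are given by name. A TTGGCA match can share bases with a reverse CCAAT match, as in Fez1.

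**Figure D4:**
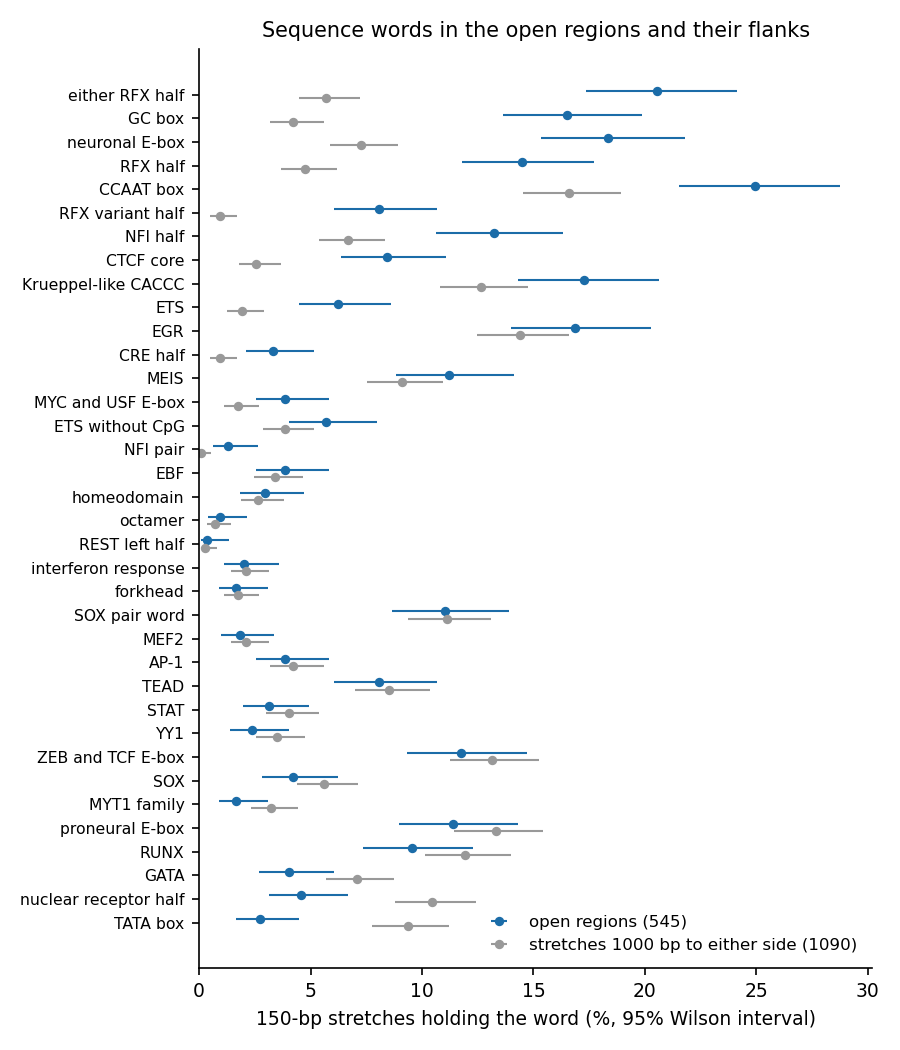
Share of 150-bp stretches that hold each sequence word on either strand (x axis, percent, points with 95% Wilson intervals) in the 545 open regions (blue) and in 1090 stretches centred 1000 bp to either side (grey), words ordered by the difference. The RFX words (GTTGCC, and GTTGCTA and their union, added after sequences were seen), the GC box and the E-box CAGCTG lie to the right of their flanks, and TATAAA and AGGTCA to the left.

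Few listed genes of neurons were CpG-poor. Of 49 listed neuronal genes on autosomes 42 were CpG-rich, and of the 7 CpG-poor ones 5 were members (71.4%, Wilson interval 35.9 to 91.8, against 7.43% of all CpG-poor genes). Stmn2, a regulator of microtubules in growing axons, had signals of 102 and 64 in replicates 1 and 2. The kinase gene Camk2a had 105 and 56, the calmodulin-binding gene Pcp4 had 95 and 61, and Rbfox3, whose product is the neuronal nuclear marker NeuN, had 100 and 35. Sncg had a peak of replicate 1 alone (47), and Pvalb, a marker of interneurons that mature after birth, a peak of replicate 2 alone (11). Of 4 CpG-poor genes on the dopaminergic and midbrain list none was a member: Aldh1a1 had a replicate 1 peak of 33, and Ddc and Gad1 were among the 3 without a peak.

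Neuropeptide genes were split. Of 14 CpG-poor ones 4 were members (28.6%, 11.7 to 54.6): Pdyn (70 and 38), the nociceptin precursor gene Pnoc (48 and 20), the cholecystokinin gene Cck (41 and 20) and Vip (32 and 12). All 4 had signals under the members' median of 81 in replicate 1. Avp and Gnrh1, which encode hypothalamic hormones, had no peak, and Grp had a replicate 1 peak of 45. In a family of adhesion genes taken by symbol, not all of them neural, 10 of 25 were members (Wilson interval 23.4% to 59.3%). They were led by Nrxn3 (123 and 43), Lrrtm4 (113 and 39), Cntnap2 (90 and 39) and Pcdhga12 (100 and 31). Cdh15 and the protocadherin genes Pcdhb20, Pcdhb16 and Pcdhb9 were members too. Cdh16 and Cdh17, cadherins of kidney and gut, had no peak. The share to set beside each count of this paragraph is the 7.43% of all CpG-poor genes. Potassium channel genes were members in 5 of 29 cases (17.2%, 7.60 to 34.5), with the inward rectifier Kcnj9 first (119 and 57), then Kcnip3 (110 and 35), Kcna1 (113 and 34) and Kcnab1 (85 and 25). Of 10 glutamate, GABA and glycine receptor genes 3 were members, among them Gria1 (81 and 43) and Glra3 (95 and 34). The sodium and calcium channel genes Cacng8 (85 and 42), Scn2b (63 and 25) and Scn7a (32 and 16) were 3 members of 11.

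Astrocyte and radial glia genes had strong members. Of 14 CpG-poor ones 6 were members (42.9%, 21.4 to 67.4), and 4 more had a peak of replicate 1 alone. Gfap, the intermediate filament of astrocytes, had 108 and 46, Fabp7, a fatty acid binding protein of radial glia, 108 and 42, Aldoc 103 and 29, and Sparcl1 112 and 26. Their values in replicate 1 lay above the members' 75th percentile of 100, while Aldoc and Sparcl1 in replicate 2 lay near its median of 25. Mlc1 (101 and 14) was a member too. The 4 listed genes without a peak were Aldh1l1, Aqp4, Cldn10 and Ttr. S100b (65), Agt (71), Acsbg1 (65) and Lgals1 (68) had replicate 1 peaks alone, whose signals lay above the median of 37 for such genes.

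Oligodendrocyte genes were members in 2 of 11 cases, Gpr37 (78 and 45) and the precursor cell receptor Gpr17 (52 and 11). A peak of replicate 1 alone lay at 4 further genes of the list, Enpp6 (29), Ermn (32) and Sox10 (36) among them, and the myelin gene Mag had none. Microglia genes gave 0 members of 22 (upper Wilson limit 14.9%), with 5 peaks of replicate 1 alone, among them Cd68 (66) and C1qc (46). Vessel genes gave 3 of 18, Myh11 (69 and 26), the pericyte gene Rgs5 (44 and 17) and the endothelial receptor gene Tek (35 and 10), and the meningeal list 1 of 13, the prostaglandin synthase gene Ptgds (90 and 15). Erythroid genes gave 0 of 19 (upper Wilson limit 16.8%). The share of members over all CpG-poor genes, 7.43%, lies within the Wilson interval of each of these lists. Of all 7337 CpG-poor genes, 633 had a peak of replicate 1 alone.

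Lists of organs outside the brain held few members, as CpG-poor genes did in general, 82.5% of which had no peak. None of 19 CpG-poor liver genes, 23 pancreas and gut genes or 13 germ cell genes was a member. Of 25 heart and skeletal muscle genes 3 were members, the myosin genes Myh8 (97 and 16) and Myh4 (30 and 11) and the natriuretic peptide gene Nppa (58 and 19); their regions lay at -333.5, -558.5 and -361.5 bp, none at the start itself. Acta1 and Casq1 had no peak. The keratin gene Krt77 (104 and 30, middle at 54.5 bp) was the only member of 17 epidermal genes, and Rag1 the only one of 25 lymphocyte genes.

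Chemosensory receptor genes were seldom members. Of 1119 olfactory receptor genes 3 were members (0.268%, 0.0912 to 0.785), Olfr1499 (55 and 20), Olfr958 (86 and 13) and Olfr557 (37 and 17), and of 327 vomeronasal receptor genes 2, Vmn2r2 (55 and 11) and Vmn1r218 (31 and 9). Their region middles lay 106.5 bp or more from the 5′ end. Chemosensory receptor genes, taste and trace amine receptors included, made up 1496 of the 7337 CpG-poor genes and 5 of the 545 members. Leaving them out, 540 of 5841 CpG-poor genes were members (9.24%). Many of these genes have near-identical copies, and how reads were placed among them is unknown. No defensin (0 of 63), skin barrier (0 of 36), prolactin and pregnancy (0 of 52) or interferon gene (0 of 18) was a member. Median CpG ratios were low in all these families: 0.105 in olfactory and 0.0911 in vomeronasal receptor genes. In the last 4 families they were 0.0851, 0.103, 0.129 and 0.0635, in the order named. Among all genes, 0.893% had a shared region under a ratio of 0.1 and 4.01% from 0.1 to 0.2. The part of the ratio in these counts was not tested.

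Among other families, zinc finger genes gave 15 members of 72 (20.8%, 13.1 to 31.6), led by Zfp629 (113 and 62), Zfp120 (132 and 53), Zfp811 (120 and 55) and Zfp93 (117 and 54), while 313 of the 343 CpG-rich ones were open. Orphan G protein-coupled receptors gave 7 of 40, with Gpr37, Gpr61 (102 and 31), Gpr22 (101 and 30) and Gpr21 (70 and 30) first. Cytochromes P450 gave 8 of 82 (9.76%), among them Cyp4f13 (105 and 40), Cyp2j6 (80 and 36), Cyp2j13 (87 and 30) and Cyp2j9 (91 and 24). Solute carriers gave 9 of 114 (7.89%), a share near that of all CpG-poor genes, with Slc8a2, a sodium calcium exchanger of neurons, first (118 and 53). The family labelled transmembrane protein models, which holds Fam, Lrrc and Ccdc symbols as well as Tmem ones, gave 19 of 147 (12.9%, 8.43 to 19.3). Unnamed gene models gave 46 of 1141 (4.03%).

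Lists of motile cilium, interferon and antigen presentation, and complement genes were written after these names had been seen among the members, so their counts support nothing and are given as description. Of 31 CpG-poor motile cilium genes 19 were members, with medians of 93 and 33. Rsph14 (116 and 66), Cfap44 (113 and 65), Efcab1 (115 and 47) and Cfap161 (117 and 46) led them. Motile cilia beat on the ependymal cells that line the ventricles, and most of the listed genes (79 of 110) were CpG-rich, 72 of those open. GTTGCC was in 8 of the 19 regions, GTTGCTA in 7, and either in 13, against 112 of all 545. The printed Cfap44 stretch has both, with GTTGCTA at -24 followed by GGCAAC at -16, and Rsph14 has TAGCAAC at -8. In the 300-base window either word was at 13 of the 19 members, against 117 of all 545. Of the 7 cilium genes without a peak, 3 (Pifo, Cfap73 and Sntn) held either word in the 300-base window. Of all 6050 CpG-poor genes without a peak, 842 did.

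Of 48 CpG-poor interferon and antigen presentation genes 25 were members, with medians of 67 and 21. The interferon response word was in the 300-base window of 4 of these 25 and of 9 of the 14 listed genes without a peak. Over all CpG-poor genes it was at 24 of 545 members and 274 of 6050 genes without a peak. MHC genes, a family taken by symbol, were members in 8 of 21 cases (38.1%, 20.8 to 59.1). H2-Eb1, a class II beta chain, had 102 and 56, close to the start of Gm20513. The class I gene H2-T22 had 120 and 43, H2-Ab1, another class II beta chain, 67 and 33, and H2-Ob 74 and 27. H2-M1 and H2-M10.1 were among the 12 MHC genes without a peak. Class II genes are known for an X-box read by RFX proteins and a Y-box, an inverted CCAAT, which the printed H2-Ob stretch shows as TAGCAAC at -87 and ATTGG at -55. CCAAT was in 6 of the 8 MHC regions, and either RFX word in 3 (H2-Ob, H2-Aa and H2-Eb1). In the 300-base window CCAAT was at 5 of the 8 members and 11 of the 12 MHC genes without a peak. Either RFX word was at 4 of the 8 and 0 of the 12. Over all CpG-poor genes either word was at 117 of 545 members and 842 of 6050 genes without a peak. The 4 carriers (H2-DMb1, H2-Ob, H2-Aa and H2-Eb1) are class II genes, while many of the 12 are H2-M genes. Other class II genes held neither word in that window: the members H2-Ab1 and H2-DMb2, and H2-Oa, which had no peak. The variant word was added after the H2-Ob stretch had been read, so this contrast supports nothing. Outside the family, the interferon regulator genes Irf9 (117 and 50) and Irf7 (26 and 21), the exonuclease gene Trex1 (105 and 50, near Atrip) and the antiviral gene Mx1 (26 and 10) were members. MHC genes are near-copies of one another, and the share of reads placed wrongly is unknown.

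Of 31 CpG-poor complement genes 10 were members, and their signals were lower (medians 51 and 18). Cd59a (85 and 30), the lectin pathway protease gene Masp1 (79 and 27), C1rl (76 and 17) and C8a (48 and 25) were the strongest. C1ra and C1rb, C1s1 and C1s2, and Cd59a and Cd59b are pairs of near-copies, so their values may not be independent. C1qa and C3 had no peak.

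**Figure D5:**
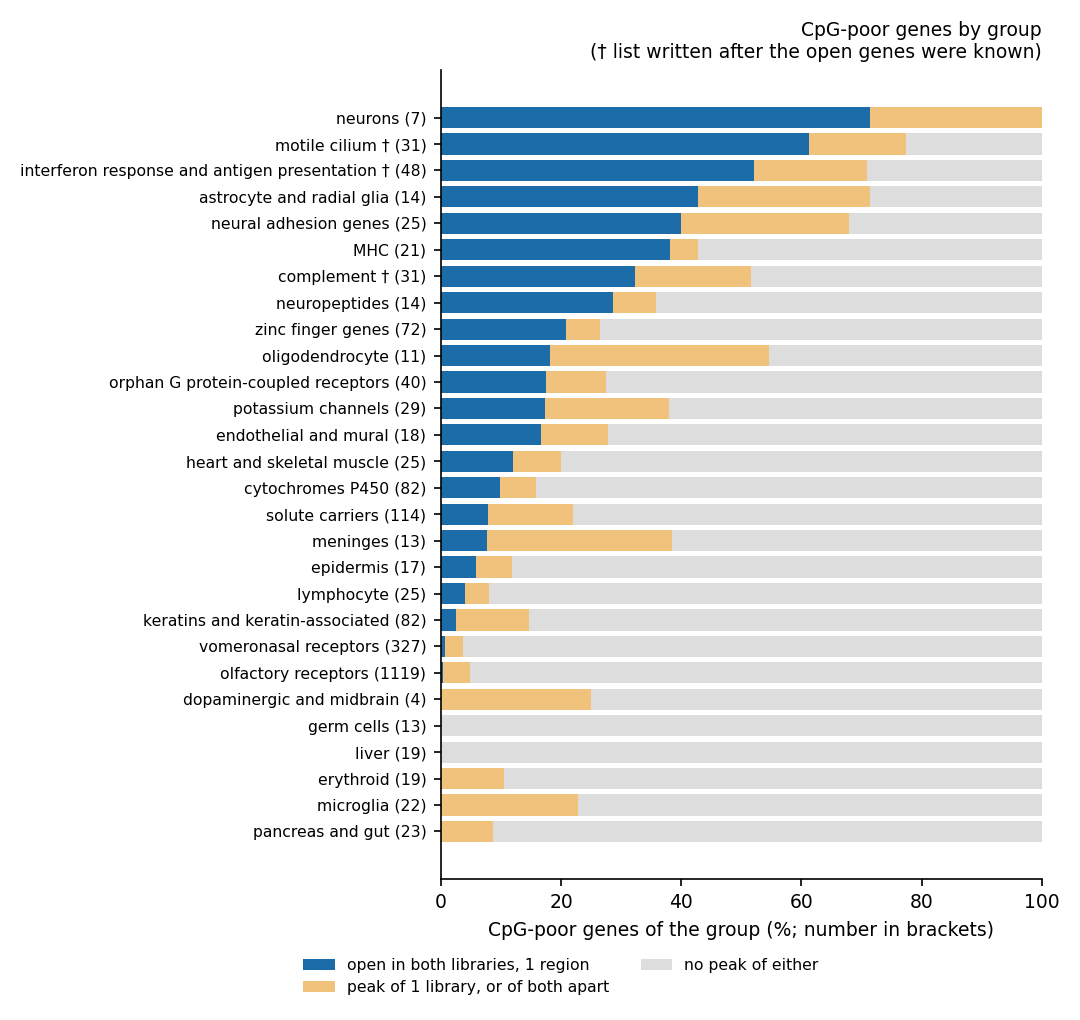
CpG-poor genes of each list or family (y axis, number in brackets) split into members, genes with a peak of 1 library or of both in separate regions, and genes without a peak (x axis, percent of the group). Neurons (5 of 7), motile cilium (19 of 31) and interferon and antigen presentation (25 of 48) have the largest shares of members, the latter 2 marked as written after the open genes were known, and olfactory receptors (3 of 1119) are almost wholly without a peak.

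The members with the lowest CpG ratios had few strong peaks. 4931408C20Rik had 0 CpG sites in its 1000 bp and signals of 45 and 15. 1700034J05Rik had 1 CpG site (ratio 0.0251, signals 61 and 26). Mx1 (ratio 0.0570), the sperm gene Akap3 (0.0591, signals 20 and 12), Cyp4f40 (0.0629, 70 and 11), 5530401A14Rik (0.0635, 113 and 24), Inpp5j (0.0660, 77 and 17), Ube2l3 (0.0679, 68 and 11), Blcap (0.0697, 79 and 38) and Atp6v1h (0.0737, 77 and 15) completed the 10. In replicate 1 only 5530401A14Rik exceeded the members' median of 81, and in replicate 2 1700034J05Rik and Blcap exceeded the median of 25. Across all members the CpG ratio and signal were weakly related (Spearman's rho 0.169 in replicate 1 and 0.257 in replicate 2, n = 545). Median signals were 75 and 15 under a ratio of 0.1 and 88 and 29 from 0.3 to 0.34.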

How the data were processed

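DNase-seq peaks and hotspots of 2 midbrain libraries, 1 list of each per library, were deposited by the authors on mm10, per the file headers and the labels. The authors gave every peak a signal in whole numbers without defining it in the labels or headers. For hotspots the deposited value is −log10 q. The peaks' own p and q fields hold no values. Which aligner and caller were run is not stated in the sources read here, nor is the depth. Signal was ranked within a library only. Replicate 1 had 215 and replicate 2 221 peaks outside chromosomes 1 to 19, X and Y, and 22 and 24 repeats, which were left out.

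Peaks of both libraries were merged where they overlapped or touched. The region of a gene with several was the one with the highest mean percentile. Genes came from GENCODE M21 and sequence from the RefSeq copy of GRCm38, with Python 3.11.15, numpy 2.4.6, pandas 2.3.3 and SciPy 1.17.1, and the functions were tested on simulated data. With 1 group of 2 libraries, and members chosen by their peaks, no test was made and no p-value is given. Shares carry 95% Wilson intervals. Members, the 15 lists, 37 families and 34 words were chosen with earlier results of these data known. The 3 further lists and 1 further word were added after members' names and sequences were seen. Named genes are the 15 strongest members, the 10 with the lowest CpG ratio, those at the limits, the 5 with the most distal regions, and up to 4 members and 2 genes without a peak per group or word. Any others were chosen after their values were seen. Some genes that the rule names are not reported here.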

Additional observations from a re-analysis of the deposited data

How the results depend on the processing

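The number of members (545) was within 1.5 times of that value in 10 of 14 alternatives. It was 848 with a CpG limit of 0.40, 358 with the stronger 50% of each peak list, 1654 when any annotated transcript start of a gene could count, and between 647 and 1198 with 1 library left out (without replicate 1 and without replicate 2). The share of CpG-poor genes that are members (7.43%) left its interval in 13 of 14 alternatives since each alternative changes the rule itself. It was 5.90% with a 250 bp window and 10.5% with 1000 bp, 5.91% with a limit of 0.30 and 10.4% with 0.40, and 8.36% with the CpG ratio taken on 250 bp each side. It was 6.75% where peaks had to overlap by 50%, 4.88% with the stronger 50% of peaks, 6.49% with the replicate 1 list shortened to the length of the other, 8.68% with hotspots in place of peaks and 11.0% with any transcript start. It ran from 8.82% to 16.3% with 1 library left out. Leaving out chemosensory receptor genes, an alternative chosen after seeing the data as was the next, gave 9.24%, and keeping only genes with a coding transcript at the 5′ end gave 6.94%. The share of members with TATAAA upstream stayed within its interval in all 10 alternatives (1.47% to 3.34%), and the share in genes without a peak was higher than it in all 9 settings where both were computed. The members' median signals (81 and 25) were 91 and 33 with the stronger 50% of peaks and 86 and 27 with the shortened list. The share of members near another gene's start ran from 9.93% to 14.0%, and it is 0 by construction where only stand-alone members are kept. Depth is unknown, so a missing peak may be a site below the caller's limit, above all in the shorter list of replicate 2. No paired analysis was possible because there is only 1 group.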
